A study of Drosophila melanogaster with 33 samples.

Results

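The genes described here encode the receptors and binding proteins with which *Drosophila melanogaster* detects odours and tastants. They were taken from the Ensembl annotation by symbol, as every gene named *Or*, *Gr*, *Ir* or *Obp* followed by a digit. This gave 237 genes of 18277 on the 7 chromosome arms, transposable elements left out: 60 odorant receptor (*Or*), 60 gustatory receptor (*Gr*), 66 ionotropic receptor (*Ir*) and 51 odorant-binding protein (*Obp*) genes. Of these, 230 are annotated as protein-coding and 7 as pseudogenes (6 *Ir* and 1 *Or*). The rule leaves out 5 genes that carry such a name only as a RefSeq synonym: *Orco*, *lush*, *Grl36a*, *Grl43a* and *Grl65a*. The question was whether Lola-I, a protein of the gene *lola* that the series title places at promoters, was found at the promoters of these genes.

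The measurement was ChIP-seq, in which chromatin of fixed embryos is precipitated with an antibody to one protein and the recovered DNA is sequenced. Of the 33 samples of the series, 2 were used: chromatin of wild-type OregonR embryos aged 14 to 17 h, precipitated with a rabbit polyclonal antibody to Lola-I, as replicates 1 and 2. Each has 1 list of peaks, with 1750 peaks on the arms in replicate 1 and 9665 in replicate 2. The 31 libraries of other targets, ages and genotypes were not analysed here, and the depth of the libraries used is unknown. The labels do not say whether the replicates came from separate collections of embryos. The material was the whole embryo, so binding in a few cells and weak binding in many cells cannot be told apart.

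As background, most olfactory neurons of the fly that use odorant receptors express 1 or a few tuning receptors, whereas bitter taste neurons can express many gustatory receptors. Odorant receptors work as ion channels together with the co-receptor Orco, ionotropic receptors work with co-receptors such as Ir25a, Ir8a and Ir76b, and gustatory receptors serve mainly in taste. Odorant-binding proteins are small proteins that support cells secrete into the fluid around the neurons. Embryos of this age are building the larval sense organs, while the adult antenna and its neurons form much later.

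Lola-I was found at the promoter of a single gene of the 237, *Or63a*. A gene counted as having a promoter peak when a peak summit, the base of highest enrichment, lay within 200 bp of any of its annotated transcription start sites (TSSs). In replicate 1 this held for 1 of 237 genes, or 0.422% (95% Wilson interval 0.0745 to 2.35%), against 5.5% of all 13968 protein-coding genes. In replicate 2 it held for the same 1 gene, against 30.9% of protein-coding genes. In both lists together it held for *Or63a* among the 237 and for 5.23% of protein-coding genes. The remaining 236 genes had no promoter summit in either list. Wilson intervals treat genes as independent, which genes of tandem clusters are not, and they cover counting error only.

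*Or63a* (FBgn0035382) encodes an odorant receptor used by olfactory neurons of the larva. It lies on chromosome 3L from 2961534 to 2963788 (dm6), plus strand, with a single annotated TSS at 2961534 and a 5′ UTR of 210 bp. In replicate 1 the peak ran from 2961264 to 2961576, with its summit 109 bp upstream of the TSS. Its fold enrichment was 9.53 and its −log10 p-value 111, which placed it 394th of the 1750 peaks. In replicate 2 the peak ran from 2961190 to 2961647, with its summit 115 bp upstream, a fold enrichment of 64.5 and a −log10 p-value of 1300, 519th of 9665. The summits were 6 bp apart, and the replicate 1 peak lay wholly inside that of replicate 2 (overlap 313 bp). The fold enrichment and p-value of a peak come from the authors' caller and are compared only within a list. Among protein-coding genes with a promoter summit, 161 of 768 in replicate 1 (21%) and 161 of 4318 in replicate 2 (3.73%) had a nearest summit of higher fold enrichment than that of *Or63a*. The medians of those genes were 4.8 and 5.63.

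**Figure D1:**
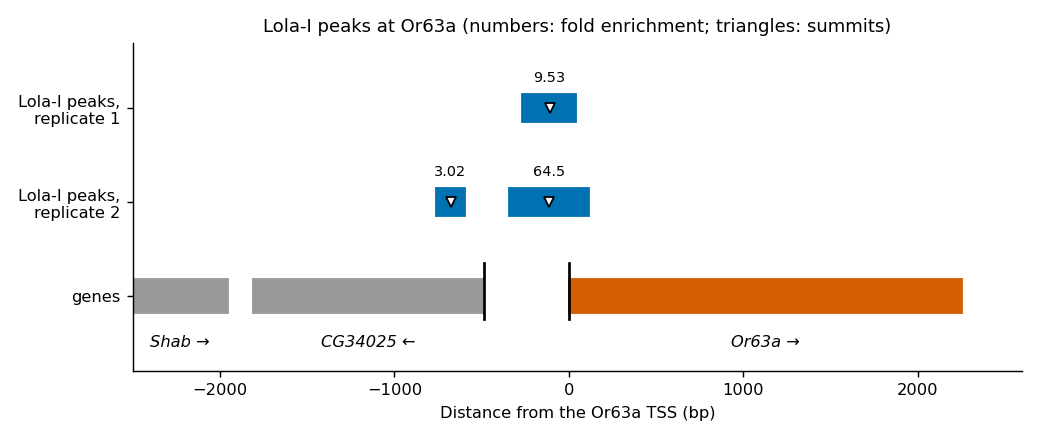
Map of the *Or63a* locus, with the distance from its TSS in bp on the x axis, Lola-I peaks of each list as blue blocks with the summit as a triangle and the fold enrichment above, and genes below with black lines at the TSSs. The summit of the main peak lies between the TSSs of *Or63a* and *CG34025* in both lists, nearer to that of *Or63a*. The main peak itself spans the *Or63a* TSS, and a small second peak of replicate 2 lies inside *CG34025*.

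The neighbouring TSS was checked because *Or63a* stands head to head with *CG34025*, a protein-coding gene on the minus strand whose TSS lies 485 bp away. The main summit was 376 bp from the *CG34025* TSS in replicate 1 and 370 bp in replicate 2, and so lay closer to *Or63a* in both lists. *CG34025* also had a summit of its own in replicate 2, 189 bp from its TSS and inside the gene, with a fold enrichment of 3.02. No such second peak was in the replicate 1 list. The 3′ end of *Shab*, which encodes a voltage-gated potassium channel, lies beyond *CG34025*. Which of the divergent genes the main peak serves was not tested.

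The reference sequence under the peak is shown because it carries short words that an earlier analysis of these same lists had searched for. It covers the 250 bases before the *Or63a* TSS, chr3L:2961284-2961533 on the plus strand, read from RefSeq Release 6 on dm6 coordinates. Capitals mark the words AAAGCT and AAGCTC, the palindrome AAGCTT and the word GAGAG, on either strand, and the first 3 overlap one another by up to 5 letters.
*Or63a* upstream: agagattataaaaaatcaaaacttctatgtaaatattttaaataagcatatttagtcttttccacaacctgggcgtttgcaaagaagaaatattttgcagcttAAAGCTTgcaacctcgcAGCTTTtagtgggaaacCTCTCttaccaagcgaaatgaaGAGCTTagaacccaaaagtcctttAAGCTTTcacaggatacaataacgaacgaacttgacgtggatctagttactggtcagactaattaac
AAAGCT occurred at 3 positions, starting at -147, -130 and -66 bp from the TSS, which is 38 and 21 bp before and 43 bp after the replicate 1 summit. A GAGAG on the opposite strand, from -113 to -109 bp, held the replicate 1 summit and began 2 bp after the replicate 2 summit. In windows of 250 bp upstream of the 13968 protein-coding genes, AAAGCT was present in 20.1%, AAGCTC in 12.2%, AAGCTT in 10.4% and GAGAG in 26.3%. *Or63a* held all of these words. They were chosen with results of these peaks known, so their presence here is a description and no separate evidence.

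No other odorant receptor had a promoter summit, which leaves 59 without. The 25 receptors known from the larval olfactory organ, a list taken from background knowledge, include *Or63a*. The other 24 had none. Their nearest summits lay at a median of 22.4 kb in replicate 1 and 8.62 kb in replicate 2, over all 25. The 35 odorant receptors outside the larval list had medians of 62.4 kb and 20.6 kb and no promoter summit, a count of 0 that allows a share of up to 8.57%. Whether the larval and the other receptors differ was not tested. *Or88a*, which in the adult antenna responds to a fly pheromone, had a replicate 2 summit 793 bp upstream of its TSS, with a fold enrichment of 12.9, 1849th of 9665. That summit was closer to the TSS of *CG12402*, at 331 bp, than to that of *Or88a*, and it was not in the replicate 1 list.

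None of the 60 gustatory receptor genes had a promoter summit in either list, which allows a share of up to 5%. The nearest came at *Gr32a*, a receptor for bitter compounds, with a replicate 2 summit 521 bp upstream. Its fold enrichment of 2.08 placed it 9596th of 9665, and the TSS of *Idua*, which encodes a lysosomal iduronidase, was closer at 432 bp. The only summits inside any of the 237 genes lay in *Gr58b* and *Gr58c*, which converge on chromosome 2R. The share of all protein-coding genes with a summit inside was not computed, so whether this is few is unknown. The summit in *Gr58b* was 45 bp from its 3′ end and 1417 bp from its TSS, with a fold enrichment of 22.9, 1430th of 9665. The summit in *Gr58c* was 39 bp from its 3′ end, with a fold enrichment of 3.94. No other gene has a TSS within 1000 bp of either summit, and both were in the replicate 2 list alone.

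None of the 66 ionotropic receptor genes had a promoter summit, which allows a share of up to 4.55%. The co-receptors were no exception. *Ir25a*, the most widely used of them, had its nearest summit at 17.5 kb in replicate 1 and 2.72 kb in replicate 2. *Ir8a*, the co-receptor of acid-sensing olfactory neurons, had its nearest summits at 147 kb and 46.6 kb. For *Ir76b*, which serves in taste and smell, they were at 6.63 kb and 6.12 kb. For *Ir93a*, needed in temperature and humidity sensing, they were at 6.45 kb and 6.48 kb, and that replicate 2 peak was strong, with a fold enrichment of 96. In replicate 2, *Ir60e* had a summit 286 bp upstream that lay 36 bp from a TSS of *CG13585*, with a fold enrichment of 3.77. *Ir48c* had one 665 bp upstream that lay 208 bp from the TSS of *ths*, which encodes a fibroblast growth factor ligand, with a fold enrichment of 2.66. Both summits were closer to the neighbour's TSS.

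None of the 51 odorant-binding protein genes had a promoter summit, which allows a share of up to 5.88%. *Obp99b* came closest, with a replicate 2 summit 238 bp upstream of its nearest TSS, just outside the 200 bp limit. Its fold enrichment was 8.13 and its −log10 p-value 94.1, 3091st of 9665. No other gene has a TSS within 1000 bp of that summit. *Obp83cd* had a replicate 2 summit 530 bp upstream, also with no other TSS within 1000 bp, but among the weakest of the list (fold enrichment 2.35, 9632nd of 9665). *Obp28a*, whose product is carried in antennal sensilla, had a summit 986 bp downstream of its TSS, beyond its 3′ end. That summit lay 72 bp from the TSS of *Ziz*, which encodes a guanine nucleotide exchange factor, with a fold enrichment of 15.3. The replicate 1 list held no summit within 1000 bp of the TSSs of these 3 genes.

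Sequences of 101 bp centred on 3 of these replicate 2 summits are given to set beside that of *Or63a*, in the direction of the named gene and with the same words in capitals. They are chr3R:29717084-29717184 (minus strand, *Obp99b*), chr3R:14108602-14108702 (plus strand, *Or88a*, towards *CG12402*) and chr2L:7496329-7496429 (minus strand, *Obp28a*, at *Ziz*), all in intergenic DNA.
*Obp99b*: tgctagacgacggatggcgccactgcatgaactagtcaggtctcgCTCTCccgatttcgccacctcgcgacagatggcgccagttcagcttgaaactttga
*Or88a*: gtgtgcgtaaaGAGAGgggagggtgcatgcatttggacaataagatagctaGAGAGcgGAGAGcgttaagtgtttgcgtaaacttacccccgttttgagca
*Obp28a*: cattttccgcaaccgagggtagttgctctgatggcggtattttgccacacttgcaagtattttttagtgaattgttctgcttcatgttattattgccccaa
GAGAG was present in the first and second of these windows, none of the 4 words in the third, and AAAGCT in none. In 101 bp windows around all 9665 replicate 2 summits, GAGAG was present in 31.8% and AAAGCT in 19.9%. Around the TSSs of protein-coding genes the shares were 11.5% and 7.39%.

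The distances to which the 200 bp limit was applied were also summarised without a limit, so they are not separate from the promoter count. The median distance from a member's TSS to the nearest summit was 39.3 kb in replicate 1 (quartiles 16.9 and 73.5 kb), against 23.2 kb for protein-coding genes. In replicate 2 it was 9.78 kb (quartiles 4.91 and 19 kb), against 2.45 kb for protein-coding genes. The families lay close together in replicate 2, with medians of 11.4 kb for *Or*, 7.77 kb for *Gr*, 10.6 kb for *Ir* and 8.29 kb for *Obp* genes. In replicate 1 the medians were 32.7, 38.7, 34.1 and 52.6 kb in the same order, highest for *Obp* genes. The farthest was *Ir41a* in replicate 1, at 785 kb, and *Ir20a* in replicate 2, at 103 kb.

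**Figure D2:**
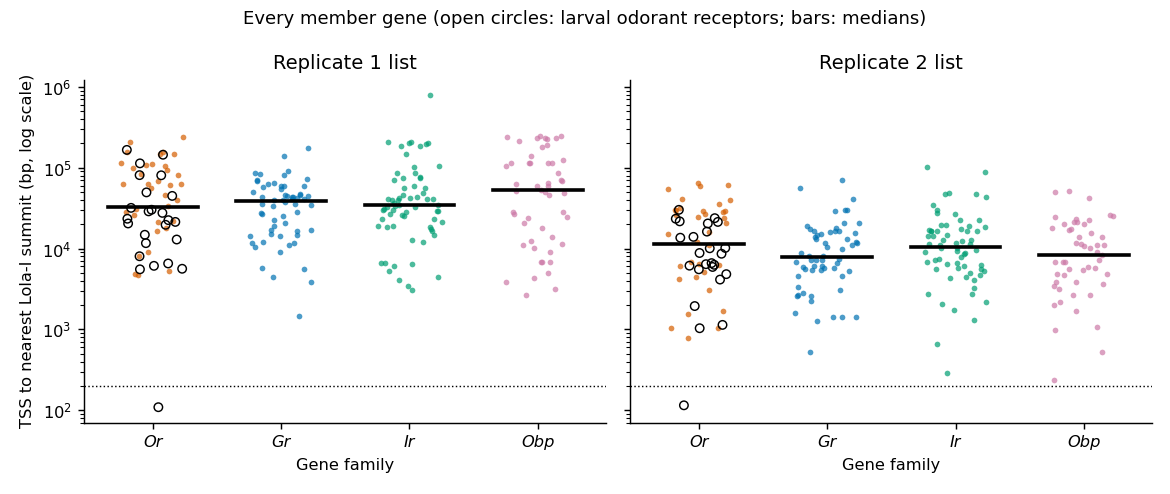
Distance from the TSS to the nearest Lola-I summit (bp, log scale) for each of the 237 genes by family, in replicate 1 (left) and replicate 2 (right). Points are genes, open circles the 25 larval odorant receptors, bars medians and the dotted line the 200 bp limit, below which *Or63a* stands alone in both lists.

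At wider limits more members had a summit, but mostly one that lay nearer to the TSS of another gene. Within 1000 bp, 1 gene of the 237 had a summit in replicate 1 and 8 did in replicate 2 (3.38%), against 8.66% and 41.1% of protein-coding genes. Those 8 genes are *Or63a* and the 7 described above, *Or88a*, *Gr32a*, *Ir48c*, *Ir60e*, *Obp28a*, *Obp83cd* and *Obp99b*. The summit was nearest to the member's own TSS in 3 of the 8, *Or63a*, *Obp83cd* and *Obp99b*, whereas this held for 78.6% of the 5742 protein-coding genes with a replicate 2 summit within 1000 bp. Within 5000 bp, 60 members had a replicate 2 summit (25.3%), against 63.7% of protein-coding genes. It was nearest to their own TSS in 12 of the 60 (20%), against 53.5% of those 8903 protein-coding genes. In replicate 1, 15 members had a summit within 5000 bp (6.33%), against 18.4% of protein-coding genes. It was nearest to their own TSS in 4 of the 15, against 46.4% of those 2572 protein-coding genes. The replicate 2 protein-coding counts include the 4318 genes with a summit within 200 bp, of which 91.4% had their own TSS nearest. The contrast is thus not separate from the promoter count, and shares for genes beyond 200 bp alone were not computed.

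**Figure D3:**
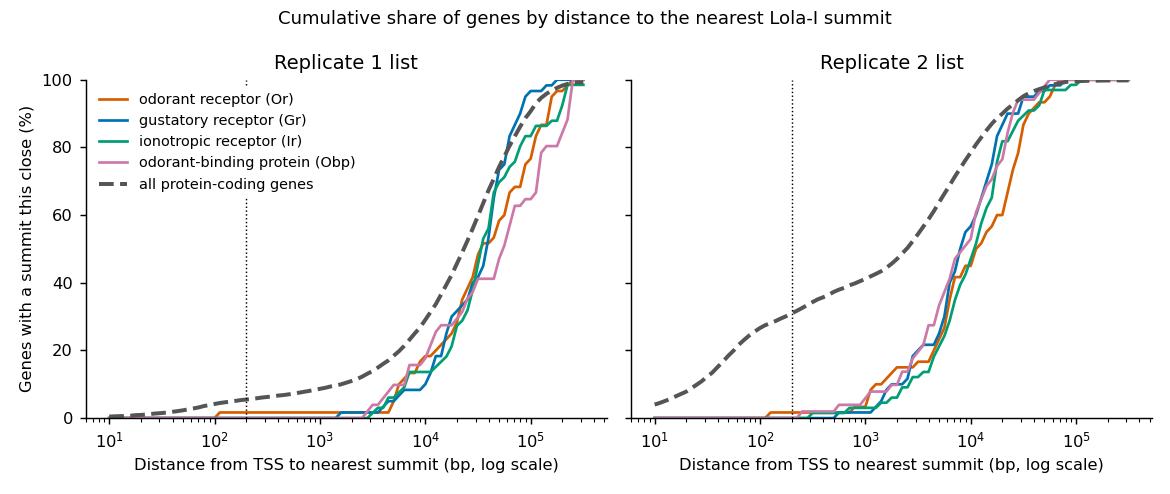
Cumulative share of genes (%) by distance from the TSS to the nearest Lola-I summit (bp, log scale) for each family and for all protein-coding genes, in each list. At the dotted 200 bp line the protein-coding genes stand at 5.5% in replicate 1 and 30.9% in replicate 2, while *Or* genes stand at 1.67% and the other families at 0 in both.

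Summit density around the TSS was then measured with 1 TSS per gene, to see how far the sparse zone reached. Within 200 bp the members had 1.05 summits per 100 kb in each list, against 10.8 in replicate 1 and 68.8 in replicate 2 for protein-coding genes. Beyond that, up to 1000 bp, they had 0 and 2.11, against 2.4 and 15.4. Between 5000 and 20000 bp the members had 1.31 and 6.67, against 1.65 and 9.58. The density of members thus lay nearest to that of protein-coding genes in the outermost zone. Clustered members share surroundings, and 112 of the 237 have another member's TSS within 5000 bp.

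**Figure D4:**
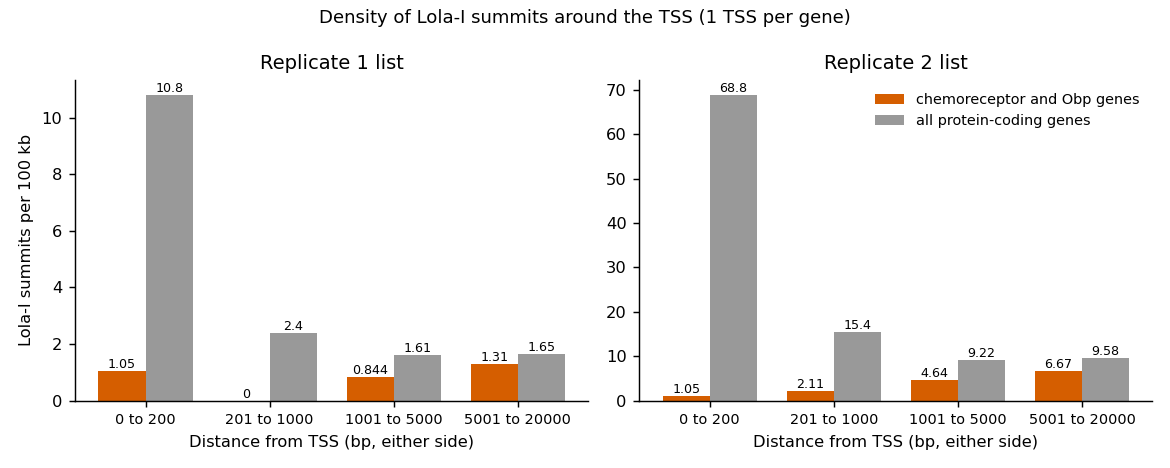
Lola-I summits per 100 kb in 4 distance zones on either side of the TSS, for the members (orange) and all protein-coding genes (grey), in replicate 1 (left) and replicate 2 (right, with its own scale). The protein-coding genes have their highest bar within 200 bp, where the members have 1.05 in each list.

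The genes next to the members did have promoter peaks. Of the 447 other protein-coding genes with a TSS within 10000 bp of a member's TSS, 97 had a promoter summit in replicate 2, or 21.7% (18.1 to 25.8%), and 20 did in replicate 1, or 4.47% (2.91 to 6.81%). Within 5000 bp these were 45 of 221 (20.4%) and 8 of 221 (3.62%). In replicate 2 these shares lie below the 30.9% of all protein-coding genes and above the 0.422% of the members. In replicate 1 the interval within 10000 bp and that within 5000 bp (1.85 to 6.98%) both hold the 5.5% of all protein-coding genes. The latter also overlaps the interval of the members, which reaches 2.35%.

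The annotation of the members limits what a promoter count can show. Many receptor models begin at the start codon: 136 of the 230 protein-coding members (59.1%) have no annotated 5′ UTR, against 366 of 13738 other protein-coding genes (2.66%). By family the share was 72.9% for *Or*, 65% for *Gr*, 80% for *Ir* and 11.8% for *Obp* genes. The true start of those genes may lie outside the window, and its part in the low count was not tested. Where a 5′ UTR is annotated, 1 of 94 members had a promoter summit in replicate 2, against 4309 of 13372 other protein-coding genes (32.2%). Among *Obp* genes, 45 of 51 have an annotated 5′ UTR, and none of the 51 had a promoter summit. Whether the annotated starts are correct was not tested. Among the 136 members without a 5′ UTR the count was 0 in each list. Other genes without a 5′ UTR had promoter summits seldom too, 8 of 366 in replicate 2 (2.19%) and 2 of 366 in replicate 1 (0.546%). A count of 0 allows 3 counts, so these 136 members cannot be told apart from the other genes without a 5′ UTR.

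Other features of the promoters were set beside the counts. Median GC content from 250 bp before to 50 bp after the TSS was 39.3% in members and 38% in all protein-coding genes. In the class of highest GC content, 46.3% or more, 0 of 32 members had a replicate 2 promoter summit, against 43.1% of other protein-coding genes. Most members have a single TSS, and among such genes 1 of 209 members had a summit, against 22.8% of others. With no other gene's TSS within 1000 bp the counts were 0 of 162 members and 27.1% of others. Among genes with a 5′ UTR, a single TSS and no such neighbour they were 0 of 43 members and 20.7% of others. AAAGCT was present in the promoters of 54 protein-coding members (23.5%) and of 22.1% of other protein-coding genes. Of those 54, 1 had a summit in replicate 2, against 40.3% of the other genes with the word. The word was chosen with results of these lists known, so the 40.3% is not independent of them.

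**Figure D5:**
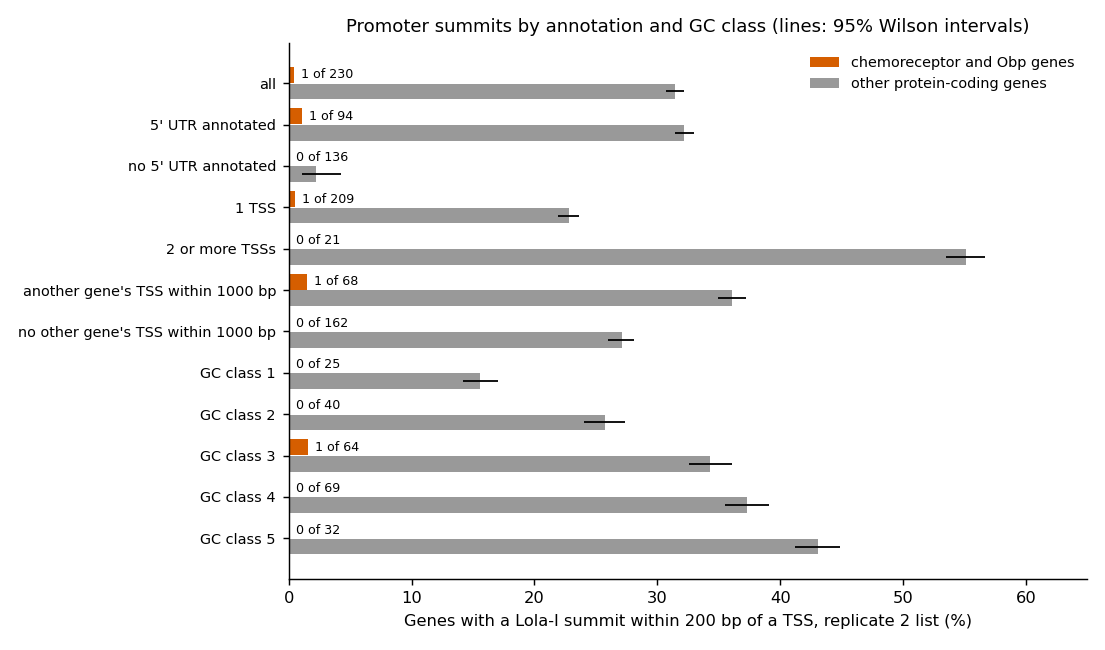
Share of protein-coding genes with a replicate 2 promoter summit (%) in classes of annotation and promoter GC content, for the members (orange, with counts) and other protein-coding genes (grey, black lines as 95% Wilson intervals). GC classes run from low (1) to high (5); members reach 1 gene at most in each class, while other genes range from 2.19% without a 5′ UTR to 55.1% with 2 or more TSSs.

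Near-identical gene copies could hide peaks if reads match several places, so the uniqueness of the promoters was measured. In 232 of the 237 members every 31-base word within 200 bp of the TSS occurs once in the reference genome (97.9%), against 94.3% of protein-coding genes. The 5 exceptions are odorant receptors. Only *Or19a* and *Or19b*, near-identical copies of each other, had most of their words repeated (8.36% unique each). How the authors treated reads that match several places is not given in the sources used here.

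Other families with restricted use were counted the same way. In replicate 2, 2 of 95 cuticle protein genes (*Cpr* and *Twdl*, 2.11%), 1 of 29 *ppk* sodium channel genes (3.45%) and 4 of 16 *mth* and *mthl* receptor genes (25%) had a promoter summit. In replicate 1 these were 1, 1 and 3 genes. The Wilson interval of the members in replicate 2, up to 2.35%, overlaps those of the cuticle proteins (0.579 to 7.35%) and the *ppk* genes (0.611 to 17.2%), and lies below that of the *mth* genes (10.2 to 49.5%).

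Genes that work with the members but fall outside the symbol rule were taken from a list of 14. None had a promoter summit in replicate 1 (background 5.5%), and 4 did in replicate 2 (28.6%, background 30.9%). *Snmp2*, a CD36-related membrane protein of the sense organs, had a summit at -40 bp with a fold enrichment of 12.6. *pdm3*, a POU factor that controls odorant receptor choice, had one at -152 bp with 9.84, and *Fer1*, a basic helix-loop-helix factor, one at -95 bp with 6.96. *onecut*, a homeodomain factor, had one at -4 bp with 3.9. The co-receptor gene *Orco* had its nearest replicate 2 summit 1.31 kb from a TSS. For the pheromone-binding protein gene *lush* it was at 4.37 kb, and for *Snmp1*, needed for pheromone detection, at 11.8 kb. *acj6*, a second POU factor of olfactory neurons, and *Eip93F* had summits just outside the limit, at -291 and -241 bp. Those of *lz*, *dati* and *sim* lay between 505 and 931 bp away. For the proneural genes *amos* and *ato* the distances were 6.08 and 8.11 kb.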

How the data were processed

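The members, lists and comparisons were chosen with earlier results of these data known. Per the labels' protocols, embryos were fixed with formaldehyde and the chromatin sonicated and precipitated. The submitters' processing notes name CASAVA 1.8.2, Bowtie 1.0.0 and the build dm6. The peak caller's version, control and filters are not given in the sources used here. The authors called peaks per replicate. The deposited lists hold, for each peak, a score (10 times the −log10 p-value without its decimals), a fold enrichment (a ratio over background), a deposited −log10 p-value and q-value, and the summit offset. These values were used only within a list, with peaks ranked by −log10 p-value. They carry no read counts, so the depth is unknown.

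From there, summits on the 7 arms were set against the TSSs of Ensembl release 115, and sequence was read from RefSeq Release 6; all 237 symbols matched RefSeq. Assignment was tested on simulated summits. Shares have 95% Wilson intervals, and a count of 0 allows 3 counts. No test was run, since members are a chosen list and shares of all protein-coding genes stand beside theirs. Promoters run from 250 bp before to 50 bp after the TSS used by most transcripts. Named genes are members with a summit within 1000 bp or inside the gene, 4 co-receptors and the list of 14. *Ir41a*, *Ir20a*, *Or19a* and *Or19b* were named after their values were seen. The classes by 5′ UTR, TSS number and word, and the uniqueness measure, were added after the counts were known. Python 3.11.15, NumPy 2.4.6, SciPy 1.17.1 and matplotlib 3.10.9 were used.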

Additional observations from a re-analysis of the deposited data

How the results depend on the processing

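The count of members with a promoter summit was 1 in each list and in both together. It was also 1 when only the peaks at or above the median score of each list, the nearest TSS, protein-coding members or members with an annotated 5′ UTR (added after seeing the data) were used, and with the replicate 2 list shortened to its 1750 best peaks. In each of these the gene was *Or63a*. Leaving out a replicate, so that the other list stands alone, gave 1 to 1. Within 100 bp the count was 0 in each list and in both, because the *Or63a* summits lie 109 and 115 bp away. Protein-coding genes with a summit that close made up 4.17% in replicate 1 and 26.6% in replicate 2. The member count was 0 in each list among members with no other gene's TSS within 1000 bp, which leaves out *Or63a*. In replicate 2 the count was 3 within 500 bp (1.27%), 8 within 1000 bp (3.38%) and 60 within 5000 bp (25.3%). Of protein-coding genes, 37.3%, 41.1% and 63.7% had a replicate 2 summit within these limits. With peak intervals in place of summits the replicate 2 count was 2, *Obp99b* being added. Within 5000 bp the count was 15 in replicate 1 and 15 in both lists (6.33% each), against 18.4% and 17.8% of protein-coding genes. The median distance to the nearest summit was 39.3 kb in replicate 1 and 9.78 kb in replicate 2. GC content was 38% in the upstream part alone. Of all 237 members, pseudogenes included, 69 fell in the lowest 2 of 5 GC classes, or 76 by the upstream part. Classes 1 and 2 held 10.9% and 17.4% of protein-coding members, against 19.2% and 19.3% of other protein-coding genes. No paired analysis was possible because the counts come from no test and only 1 group has files used here. Peak lists without depth cannot show whether a member lacks binding or lies under the caller's threshold.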

Other observations

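These counts were made after the *Or63a* sequence had been seen. *Or63a* was the only 1 of 230 protein-coding members with AAAGCT, on either strand, at 3 or more positions of the promoter. Of 229 other protein-coding genes with such promoters, 182 had a Lola-I promoter summit in replicate 2 (79.5%, Wilson interval 73.8 to 84.2%) and 144 in replicate 1 (62.9%, 56.5 to 68.9%). Over all other protein-coding genes the shares were 31.4% in replicate 2 and 5.58% in replicate 1. Over those with the word at any position they were 40.3% and 16.4%. The word was chosen with results of these lists known, so these shares are no independent evidence.

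The families differed in a TATA word. TATAAA in the direction of the gene, from -45 to -15 bp, was present at 20 of 51 *Obp* promoters (39.2%), 9 of 60 *Or* promoters (15%), 3 of 66 *Ir* promoters (4.55%) and 2 of 60 *Gr* promoters (3.33%), against 8.84% of all protein-coding promoters. The start codon stands in for the TSS in most *Or*, *Gr* and *Ir* models, so for them the window may be misplaced. Of protein-coding genes with this word, 0 of 34 members had a Lola-I promoter summit in replicate 2, against 139 of 1201 others (11.6%). In replicate 1 these were 0 of 34 and 40 of 1201 (3.33%). A count of 0 allows 3 counts, so replicate 1 cannot separate them. Whether they differ in replicate 2 was not tested.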
